A study of Drosophila melanogaster with 5 samples.

Results

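Cell 3, a single cell of the pars intercerebralis (PI) whose library was rich in *Dh44*, was set against the other 3 kept PI cells, each taken by itself. *Dh44* encodes the neuropeptide Diuretic hormone 44. Cell 3 was chosen from its own reads, as the only kept cell with *Dh44* above 10000 RPM, where RPM is the reads of a gene scaled to 1e6 reads assigned to genes. Of 17453 genes in the count tables, 8848 had at least 1 read in a kept cell. Of these, 27 genes were at 100 RPM or more in Cell 3 with at most 1 read in each of Cells 1, 2 and 4, and 28 genes were the reverse, at 100 RPM or more in each of Cells 1, 2 and 4 with at most 1 read in Cell 3. As 1 cell stands against 3 and the genes were chosen by these same reads, every difference is a description without a test. The 95% intervals (exact Poisson for reads, Wilson for shares, exact binomial on the read counts for folds) cover counting error only.

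The study aspirated GFP-labeled cells from the exposed fly brain to find signaling genes of neurons that carry circadian information out of the clock network. The flies were either kurs58-GAL4/Dilp2mCherry with UAS-mCD8::GFP/+, or c767-GAL4/+ with UAS-nlsGFP/Dilp2mCherry, and the sources used here do not give the line that each cell came from, nor the age of the flies. Both drivers label cells outside the PI as well, so GFP cells next to the mCherry-labeled insulin-producing cells were taken. The labels give each of the 4 kept cells and the discarded cell its own animal identifier, whereas the series design states 4 animals. This additional cell was left out by the study for the way its reads mapped, and it is shown here as a library that took no part in choosing the genes.

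Peptidergic neurons make neuropeptides as longer precursors, which enter the endoplasmic reticulum, are cut and modified in the secretory pathway and are stored in dense-core vesicles until calcium triggers their release. The PI is a neurosecretory center of the fly brain, and DH44, a relative of the vertebrate corticotropin-releasing factor, is made by some of its cells. Other PI cells make insulin-like peptides or SIFamide, and DH44 and SIFamide neurons of the PI act downstream of the circadian clock.

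Depth was similar across libraries. Reads assigned to genes numbered 3915694, 3451331, 4077118 and 4441952 in Cells 1 to 4 and 4913151 in the discarded cell, so 1 read was worth 0.204 to 0.290 RPM and a count of 0 in Cell 3 allows up to 3 reads, or 0.736 RPM. Cell 3 had the fewest genes with a read, 4326 against 5159 to 7257 in the other kept cells, and the fewest at 100 RPM or more, 1141 against 1298 to 1394. Its most-read gene, *Dh44*, took 13.2% of the reads on genes, whereas the most-read gene of each other kept cell took 2.24% to 2.76%. The next was *lncRNA:noe*, a noncoding RNA, at 1292, 4009, 29593 and 3023 RPM in Cells 1 to 4 and 28969 RPM in the discarded cell. Of the 15 genes with most reads in Cell 3, at least 9 encode ribosomal proteins by their symbols (*RpL5*, *RpL41*, *RpS23*, *RpS29*, *RpLP2*, *RpL26*, *RpS16*, *RpS27A* and *RpS25*). These 9 were at 6242 to 20386 RPM there and 3025 to 24033 RPM in the other kept cells. FBgn0261606 and FBgn0000556, also among the 15, have no symbol here and were not classed. After 3 rounds of antisense RNA amplification from oligo(dT) the reads lie near 3' ends, so RPM is not a level per length and is compared here between cells, not between genes.

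All 6 marker genes given for the *Dh44* cell were read in Cell 3 and were highest there among the kept cells. Cell 3 was picked for its *Dh44* reads and the markers for their values, so this describes that choice and tests nothing. *Dh44* (FBgn0012344), on chromosome 3R from 9638182 to 9650706 in BDGP6.54, had 436, 506, 538167 and 761 reads in Cells 1 to 4. This is 111, 147, 131997 and 171 RPM, and the discarded cell had 381 RPM. Cell 3 (131644 to 132350 RPM) was 770-fold (718 to 828) above Cell 4, the next highest, and the lowest libraries still held *Dh44* reads far above the count of 0.

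*7B2*, which encodes a helper protein of the prohormone convertase *amon*, was likewise far higher in Cell 3. On chromosome 3R from 5376780 to 5377975, it was at 110, 7.82, 16039 and 10.1 RPM in Cells 1 to 4 and at 1474 RPM in the discarded cell. *IA-2*, a membrane protein of dense-core vesicles (chromosome 2L, 1008378 to 1048053), had 701, 1366, 9748 and 693 RPM. Cell 3 was 7.13-fold (6.92 to 7.35) above Cell 2, the smallest gap of the 6 markers, and the discarded cell was higher still at 33053 RPM.

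*Ms* encodes the precursor of myosuppressin, a peptide that inhibits muscle contraction. It lies on chromosome 3R from 24341551 to 24343825 and was at 167, 58.5, 2302 and 2.70 RPM in Cells 1 to 4 and at 1218 RPM in the discarded cell. *CCHa2-R*, the receptor of the nutrient-dependent peptide CCHamide-2, lies on chromosome 2R from 6050949 to 6068680. It had 1, 2, 1514 and 1 reads, and its level in Cell 3, 371 RPM, compared with 27.3 RPM in the discarded cell. Both genes thus had most of their kept-cell reads in Cell 3. *Ms*, with 9384 reads there, also had 652, 202 and 12 in Cells 1, 2 and 4, whereas *CCHa2-R* had at most 2 in each of these.

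*Ilp2*, an insulin-like peptide gene that marks the insulin-producing cells and gives the mCherry reporter of these flies its name, was also read in Cell 3. On chromosome 3L from 9799698 to 9800440, it had 4, 46, 8179 and 1 reads in Cells 1 to 4, and Cell 3 was at 2006 RPM (1963 to 2050) against 156 RPM in the discarded cell. *Ilp3* had 2, 2, 254 and 5 reads and *Ilp5* had 0, 10, 143 and 0, so all 3 insulin-like peptide genes of these neurons were highest in Cell 3. *Dsk*, the drosulfakinin gene of the same neurons, had 0 reads in Cells 1, 2 and 3 and 460 reads in Cell 4. The 4 insulin-producing cell markers together held 0.210% (0.206 to 0.215) of the reads of Cell 3 against 0.0105% or less in the other kept cells and 0.0191% in the discarded cell. By the study's account, the mCherry label also served to avoid taking insulin-producing cells. The cell was harvested as a GFP cell beside mCherry cells, and the part that neighboring cells had in these reads was not tested.

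**Figure D1:**
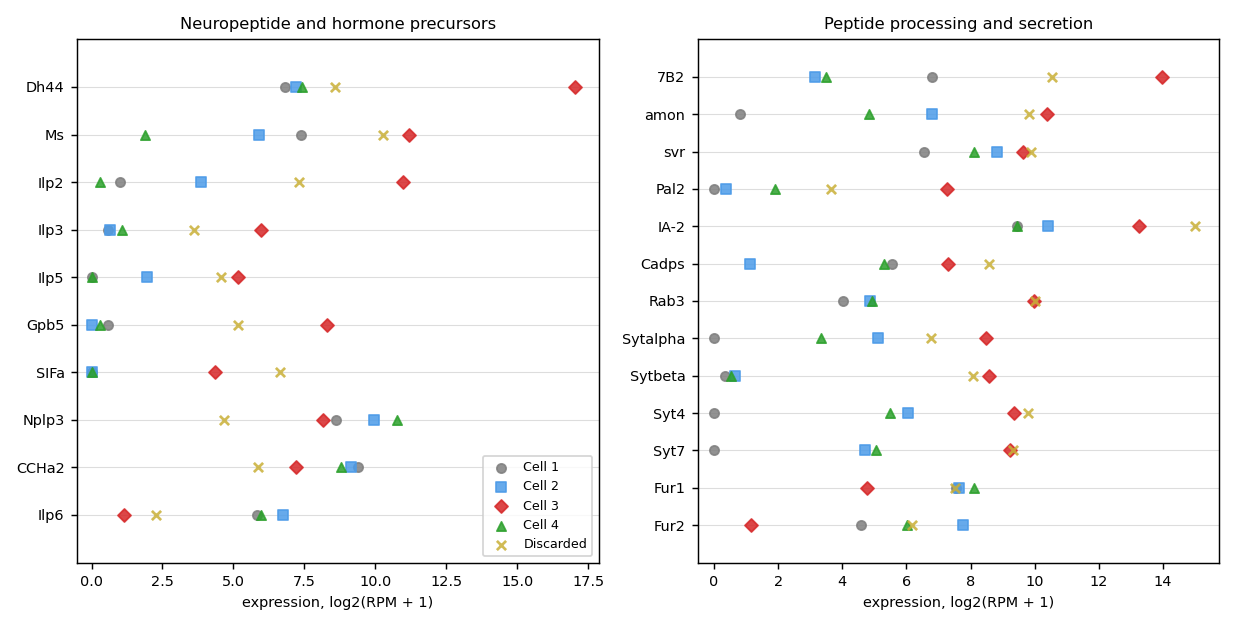
Expression, as log2(RPM + 1), of 10 neuropeptide or hormone precursor genes (left) and 13 processing and secretion genes (right), with 1 point per library and no error bars, since each point is a single cell. *Dh44* stood at 17.01 in Cell 3 and at 6.81 to 7.43 in the other kept cells, while *Fur1* and *Fur2* were lowest in Cell 3.

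Peptide precursors were compared over a list of 46 genes, *Dh44* among them, of which 44 were matched and 32 had a read in a kept cell. At 100 RPM or more were 4, 5, 6 and 5 of them in Cells 1 to 4 and 11 in the discarded cell, where 15.8%, 14.7%, 12.9%, 15.2% and 18.6% of all genes reached that level. Cell 3 therefore did not hold many more precursors than its neighbors at this level. *Dh44*, *CCHa2* and *Nplp3* were among them in all 4 kept cells and *Ms* in Cells 1 and 3, while *Ilp2* and *Gpb5* reached this level in no other kept cell than Cell 3. Cell 3 held far more of a single precursor, as *Dh44* was 96.1% (96.1 to 96.2) of its precursor reads and 6.33% to 7.32% of those of the other kept cells. Without *Dh44* the precursors were 0.533% (0.526 to 0.540) of the reads on genes in Cell 3 against 0.141%, 0.199% and 0.254% in Cells 1, 2 and 4 and 0.461% in the discarded cell.

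A wider rule, chosen after the values were seen, took genes at 100 RPM or more in Cell 3 and at least 10 times the highest other kept cell. It was met by 186 genes (2.1% of 8848), and the reverse rule, with each other kept cell at 100 RPM or more and at least 10 times Cell 3, by 178 (2.01%). The same counts were 72 (0.814%) and 22 (0.249%) for Cell 1, 18 (0.203%) and 0 for Cell 2, and 35 (0.396%) and 2 (0.0226%) for Cell 4. Of the genes that had the level to meet the rule, 16.3% of 1141 were higher in Cell 3 and 24.9% of 714 were lower. Of the precursors, 4 of 44 met the rule upward (*Dh44*, *Ilp2*, *Ms* and *Gpb5*) and 0 downward. With size factors in place of totals the split over all genes became 373 higher and 86 lower, since that scaling moved all genes of Cell 3 by 0.84 upward on the log2 scale and those of Cells 1, 2 and 4 by 0.07, -0.36 and -0.55.

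*Gpb5*, the beta subunit of a glycoprotein hormone, had 2, 0, 1283 and 1 reads in Cells 1 to 4 and 35.0 RPM in the discarded cell. *Nplp1* and *SIFa*, the precursor of SIFamide, were higher in Cell 3 than in the other kept cells but below 100 RPM by the main counts. In the MMQuant counts, with reads shared between overlapping genes added, *SIFa* reached 100 RPM in Cell 3 and met the 10-fold rule upward. By the main counts *Nplp1* had 1, 18, 221 and 1 reads and *SIFa* had 0, 0, 80 and 0, and both were higher in the discarded cell, at 912 and 99.5 RPM. Other precursors were lowest in Cell 3. *Ilp6*, a fat body insulin-like peptide, was at 55.2, 106, 1.23 and 62.1 RPM, and *CCHa2*, the ligand of *CCHa2-R*, at 670, 563, 147 and 440 RPM. The ligand and its receptor thus had opposite orders between Cell 3 and the other cells.

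Enzymes and vesicle proteins of the peptide pathway were read at higher levels in Cell 3 as a group. Of 20 listed genes 17 were matched, and 8 met the 10-fold rule upward and 0 downward (186 and 178 of 8848 overall). At 100 RPM or more were 4, 6, 12 and 4 of the 17 in Cells 1 to 4 and 13 in the discarded cell. Over all genes with a read, the shares at that level were 15.8%, 14.7%, 12.9%, 15.2% and 18.6% in the same order. The median difference between Cell 3 and the median of the other kept cells was 4.20 in log2(RPM + 1), against -0.37 over all genes with a read. The list held 3.22% (3.20 to 3.24) of the reads of Cell 3, 0.150%, 0.271% and 0.172% of Cells 1, 2 and 4 and 4.05% of the discarded cell. *IA-2* made up most of the share in the discarded cell, and without it the shares were 2.25% in Cell 3, 0.0798%, 0.134% and 0.103% in Cells 1, 2 and 4 and 0.742% in the discarded cell. Without *IA-2* and *7B2* they were 0.643%, 0.0687%, 0.134% and 0.102% in Cells 3, 1, 2 and 4 and 0.595% in the discarded cell.

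The cutting enzymes did not all follow this order. *amon*, the prohormone convertase of neurons, was at 0.766, 109, 1347 and 27.2 RPM in Cells 1 to 4 and at 906 RPM in the discarded cell. *svr*, a carboxypeptidase that trims the cut peptides, was at 91.9, 448, 802 and 278 RPM, which is higher in Cell 3 by less than 10 times. *Fur1* and *Fur2*, furin proteases of the general secretory pathway, were lowest in Cell 3, with 724, 680, 106 and 1225 reads for *Fur1* and 90, 745, 5 and 284 for *Fur2*. *Pal2*, an enzyme of the amidation step, had 0, 1, 630 and 12 reads, but its reads cannot be told apart from those of an overlapping gene, with which 18693 reads were shared in Cell 3 by the MMQuant counts.

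Several listed genes of secretory vesicles were highest in Cell 3. *Rab3*, a GTPase of secretory vesicles, was at 15.1, 28.4, 1004 and 29.7 RPM in Cells 1 to 4 and at 1038 RPM in the discarded cell. *Syt4*, a synaptotagmin, was at 0, 64.9, 657 and 43.4 RPM, and *Syt7* at 0, 25.2, 598 and 32.4 RPM. Of the calcium-binding relatives *Sytalpha* and *Sytbeta*, *Sytalpha* was at 0, 33.6, 357 and 9.01 RPM and *Sytbeta* had 1, 2, 1558 and 2 reads. *Cadps*, which primes dense-core vesicles, was at 45.5, 1.16, 157 and 38.5 RPM. In each of these genes Cell 3 lay above every other kept cell. The transcription factor *dimm*, which promotes the neurosecretory state, had 0 reads in each of the 5 libraries.

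Genes of the endoplasmic reticulum were examined with a list written after their values were seen. Of 40 genes 36 were matched, 11 met the 10-fold rule upward and 0 downward (186 and 178 of 8848 over all genes), and 24 were highest in Cell 3 (1441 of 8848, or 16.3%, over all genes). The median difference was 2.17 in log2(RPM + 1), and 14, 12, 26 and 11 of the 36 were at 100 RPM or more in Cells 1 to 4. Over all genes with a read, 15.8%, 14.7%, 12.9% and 15.2% were at that level. Together the 36 genes held 2.64% (2.63 to 2.66) of the reads of Cell 3 against 0.495%, 0.560% and 0.631% of Cells 1, 2 and 4. In the discarded cell they held 0.397% and 12 of the 36 were at 100 RPM or more, against 18.6% of all genes.

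Chaperones were among the genes with most reads on this list. *Hsc70-3*, the fly BiP, had 3408, 6885, 21216 and 9445 reads in Cells 1 to 4, which put Cell 3 2.45-fold (2.39 to 2.51) above Cell 4. *Calr*, calreticulin, had 986, 1874, 14590 and 2038 reads, and *Grp170*, a chaperone that works with BiP, had 1098, 380, 12931 and 71. *CaBP1*, a protein disulfide isomerase, had 5, 13, 6974 and 19 reads, so that it was 400-fold (256 to 665) higher in Cell 3 than in the next cell. The increase over the other cells thus differed widely from chaperone to chaperone.

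Import and glycan trimming followed. *Spase25* and *Spase22-23*, subunits of the signal peptidase, had 54, 158, 3104 and 41 and 33, 43, 2037 and 74 reads. *SrpRalpha*, the receptor of the signal recognition particle, had 19, 34, 918 and 14 reads. *GCS2alpha* and *GCS2beta*, the subunits of glucosidase II, had 412, 83, 4560 and 197 and 7, 28, 1909 and 57 reads. Not every import gene was higher, as the translocon genes *Sec61alpha* (872, 978, 369 and 493 reads) and *Sec61beta* (999, 899, 250 and 1093 reads) were lowest in Cell 3, although with size factors, explained above, *Sec61alpha* was not. The order of *Sec61beta* was thus opposite to that of the signal peptidase, which works beside the translocon.

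Of the stress pathway genes, *PEK*, the kinase that slows translation when unfolded protein builds up, had 102, 85, 1839 and 2 reads in Cells 1 to 4. *Atf3*, a stress-related transcription factor, had 125, 572, 6974 and 112 reads, and *Xbp1*, the transcription factor activated by *Ire1*, had 755, 1472, 5937 and 1443. *Ire1* itself had 0, 2, 0 and 0 reads, and *crc*, the fly ATF4, was at 526, 644, 1596 and 1669 RPM, where Cells 3 and 4 change places with size factors. *Der-2*, a gene of the degradation pathway, had 412, 31, 1 and 50 reads. The pathway genes therefore did not share a single order over the cells.

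**Figure D2:**
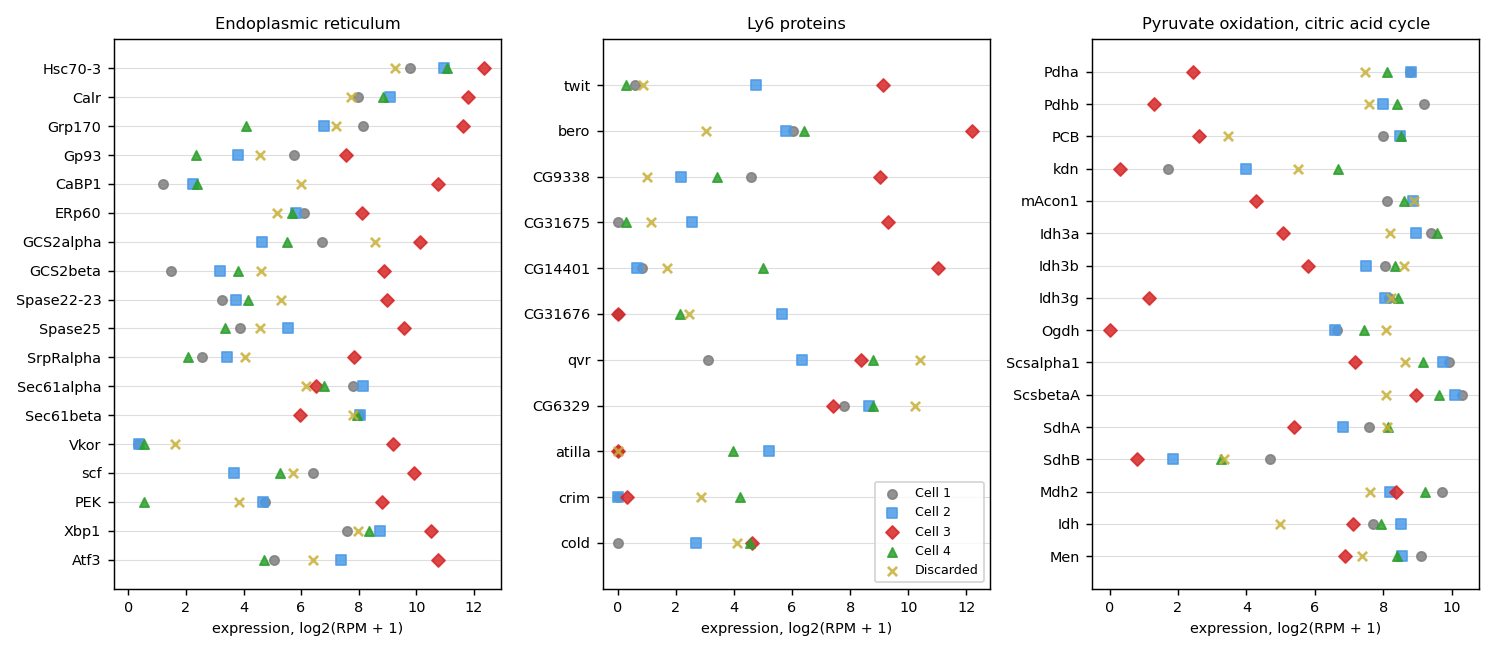
Expression, as log2(RPM + 1), of genes of the endoplasmic reticulum (left), Ly6 proteins (middle) and pyruvate oxidation and the citric acid cycle (right), with 1 point per library and no error bars. Red diamonds (Cell 3) lie to the right for most genes of the left panel and for *twit*, *bero*, *CG9338*, *CG31675* and *CG14401*, and to the left for most genes of the right panel.

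A run of neighboring genes stood out in Cell 3. The Ly6 list, also written after the values were seen, holds genes of small, membrane-anchored proteins that include the sleep factor *qvr*. Of its 18 genes 16 were matched, 5 met the 10-fold rule upward and 0 downward (186 and 178 of 8848 over all genes), and all 5 lie on chromosome 2L between 20852578 and 20871565 in BDGP6.54, a span of 18988 bases that holds 7 annotated genes. In this order along the plus strand, *twit* had 2, 90, 2294 and 1 reads in Cells 1 to 4, *bero* had 253, 186, 19334 and 372, *CG9338* had 91, 12, 2138 and 43, *CG31675* had 0, 17, 2570 and 1, and *CG14401* had 3, 2, 8568 and 138. Each was highest in Cell 3 by more than 20 times.

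The other 2 genes of the span lie on the minus strand. *CG14400*, which overlaps *twit*, had 0, 60, 0 and 217 reads, but 0, 164, 1920 and 517 of its own by MMQuant, which puts Cell 3 highest, and the pseudogene *CR9337* had 0 reads in every library. The libraries were not stranded, and 2166 reads of Cell 3 were shared between *twit* and *CG14400* in the MMQuant counts, so these genes cannot be told apart there. In the discarded cell, *twit*, *bero*, *CG9338*, *CG31675* and *CG14401* had 4, 35, 5, 6 and 11 reads, so the run was low in it as in the other cells. The nearest listed relative outside the span, *CG31676*, had 0, 170, 0 and 15 reads, and *qvr*, on another chromosome, had 30, 280, 1362 and 1981. Over the whole list the share of reads was 0.909% (0.900 to 0.918) in Cell 3, 0.0316%, 0.0680% and 0.108% in Cells 1, 2 and 4 and 0.264% in the discarded cell.

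The 27 genes read only in Cell 3 were 0.305% of the 8848 genes and 2.37% of the 1141 genes at 100 RPM or more in Cell 3. The same rule gave 18 genes (0.203%) for Cell 1, 2 (0.0226%) for Cell 2 and 9 (0.102%) for Cell 4. They ranged from 102 to 383 RPM in Cell 3, with a median of 153 RPM, and held 20690 reads there against 6, 5 and 11 reads in Cells 1, 2 and 4. Of the 27, 9 had 0 reads in all 3 other kept cells. The discarded cell had 5060 reads on them, a median of 10.8 RPM, and 20 of the 27 were at or above 1 RPM there. Of the 1141 genes 1112 were at that level in it, and of the 8848 genes 6413.

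**Figure D3:**
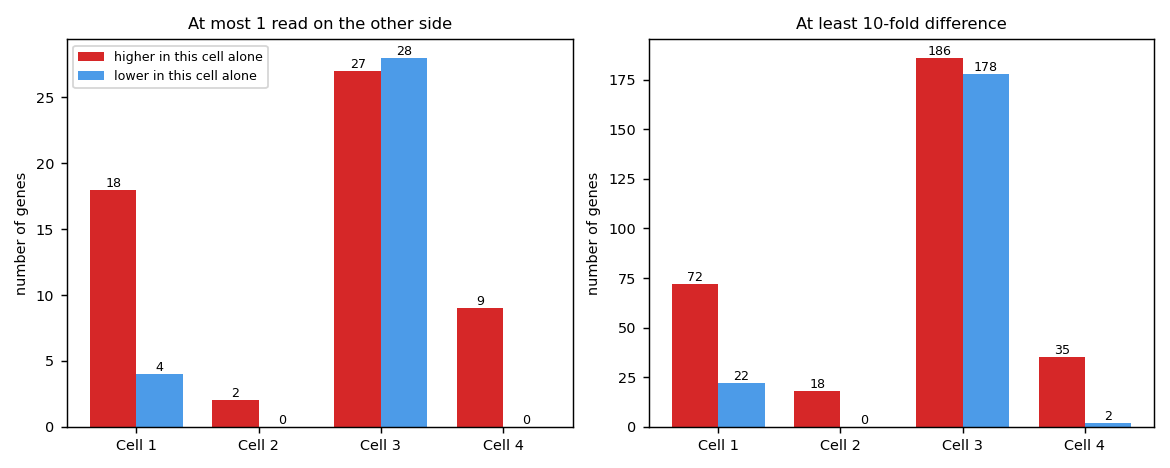
Number of genes set apart in each kept cell, with at most 1 read on the other side (left) or at least a 10-fold difference (right). Bars start at 0 and carry the count; Cell 3 had 27 and 28 genes on the left and 186 and 178 on the right, more than any other kept cell in both directions.

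*CG14247* had the highest level of the 27, with 0, 0, 1561 and 1 reads in Cells 1 to 4 and 1 read in the discarded cell. It lies on chromosome 3R from 26737610 to 26738593. *IFT57*, a component of intraflagellar transport, had 0, 1, 1328 and 1 reads, and *MFS3*, a membrane transporter, had 0, 1, 1262 and 0. *rdgBbeta*, a phosphatidylinositol transfer protein, had 0, 0, 1203 and 0 reads. *rumi*, which adds glucose to proteins such as Notch in the endoplasmic reticulum, had 0, 0, 958 and 0. *CG9109*, *CG15879*, *CG8401* and *CG30053*, at 297, 288, 221 and 213 RPM in Cell 3, were the other genes above 200 RPM apart from *dpr3*.

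Genes of the cell surface and of excitability were among the 27. *dpr3* and *beat-Ib*, immunoglobulin proteins of neuronal recognition, had 0, 0, 970 and 0 and 1, 0, 807 and 1 reads, and both were also read in the discarded cell, at 81.8 and 110 RPM. *Task7*, a potassium channel of the leak type, had 0, 0, 662 and 0 reads and 47.4 RPM in the discarded cell. *GABA-B-R2*, a metabotropic GABA receptor, had 1, 0, 573 and 0 reads and 92.0 RPM in the discarded cell. *AstA-R2*, a receptor of allatostatin A, had 0, 0, 538 and 1 reads in the kept cells and 0 in the discarded cell. Of these 5 surface genes, then, *AstA-R2* alone was without reads in the discarded library.

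The remaining named genes read only in Cell 3 ran from 112 to 169 RPM there. They are *CG42553*, *twz*, *CG15431*, *gas*, *CG42561*, *CG5282*, *CG6184*, *CG16854*, *CG10713* and *CG1394*, and FBgn0040001, which was not matched to a symbol or a position. *twz*, *CG15431*, *CG5282* and *beat-Ib* were at 100 RPM or more in the discarded cell, at 182, 116, 204 and 110 RPM. *CG14247*, *CG15879*, *AstA-R2*, *CG42561*, *CG1394* and *CG34286* had at most 1 read there as well, so 6 of the 27 would remain if the discarded cell were counted among the others. All 26 of the 27 with an annotation are protein-coding, and 1 lies on the X chromosome (3.85%, against 17.0% of all genes with a read).

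By the sum of the stranded counts 24 of the 27 genes were kept. *Ctl1* then had 230, 2, 494 and 108 reads in Cells 1 to 4 and *CG30053* had 1, 0, 1684 and 52, so neither met the rule by that sum, and *CG34286* fell below 100 RPM. The thresholds cut through a continuous range. Just inside 100 RPM were *CG34286*, *Ctl1* and *CG1394* at 102, 108 and 112 RPM, and just outside were *Nle*, *CG6066* and *Veneno* at 98.4, 97.9 and 93.4 RPM. With a highest count of 2 reads in another cell, 12 further genes missed the read limit, led by *APC4* with 2462 reads in Cell 3, *Vkor* with 2371 and *CG34155* with 1593. *Vkor*, a vitamin K epoxide reductase of the endoplasmic reticulum, had 1, 1, 2371 and 2 reads, which is 1292-fold (357 to 10671) above Cell 4.

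**Figure D4:**
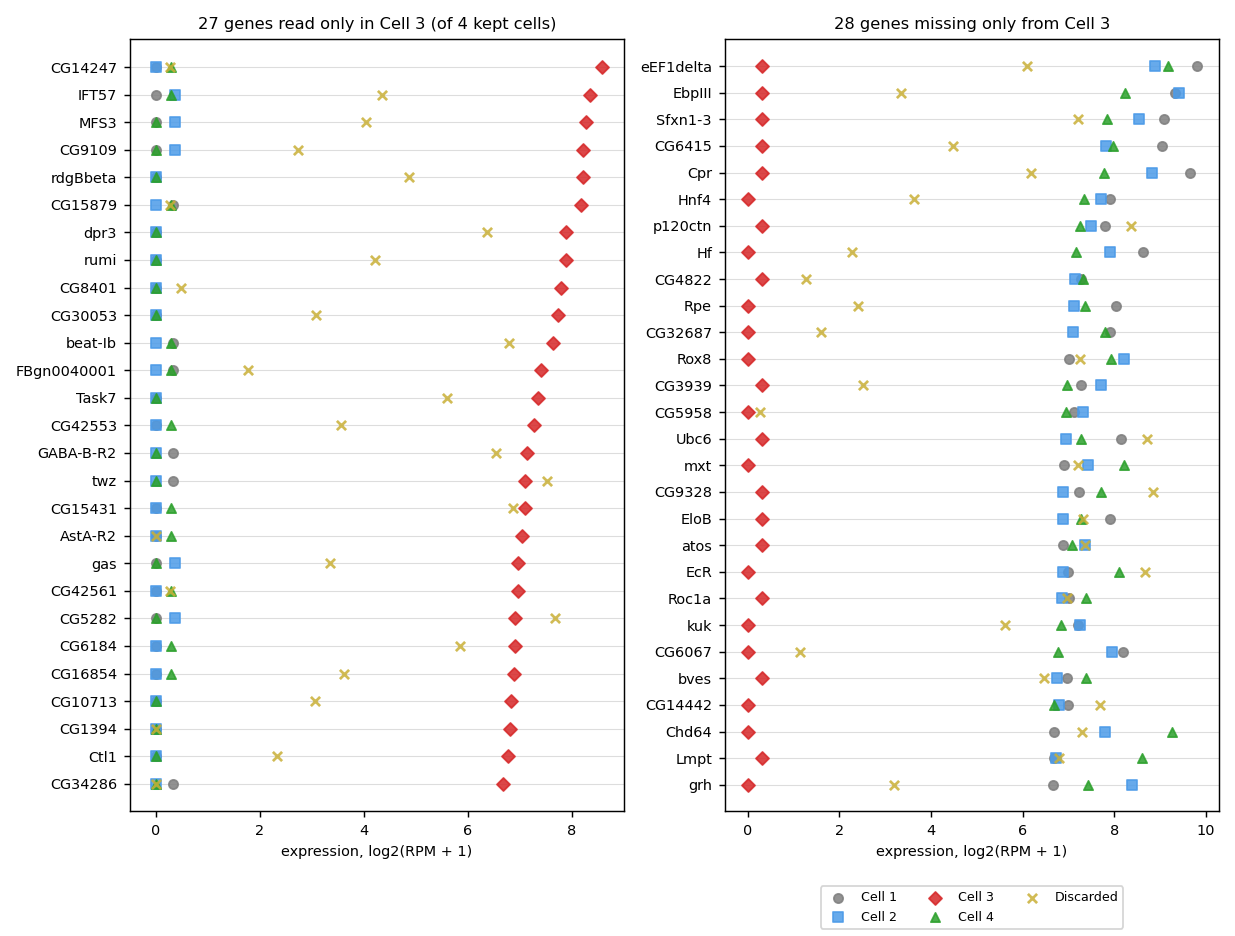
Expression, as log2(RPM + 1), of the 27 genes read only in Cell 3 (left) and the 28 missing only from Cell 3 (right), with 1 point per library and no error bars. Points of the discarded cell (crosses) are spread widely in both panels, from *CG1394* with 0 reads to *CG5282* at 204 RPM on the left. Some lie beyond both groups, as *CG5282* was at 119 RPM in Cell 3. On the right *CG9328* was at 455 RPM in the discarded cell and at most 209 RPM in a kept cell.

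The 28 genes missing only from Cell 3 were 0.316% of the 8848 genes and 3.92% of the 714 genes at 100 RPM or more in each of Cells 1, 2 and 4. The same rule gave 4 genes (0.0452%) for Cell 1 and 0 for Cells 2 and 4. They held 29287, 21044 and 27138 reads in Cells 1, 2 and 4 and 15 reads in Cell 3, where 13 genes had 0 reads and 15 had 1. In the discarded cell 27 of the 28 were at or above 1 RPM, as were 709 of the 714 genes. At 100 RPM or more were 13 of the 28 (46.4%), compared with 69.6% of the 714 genes. The discarded cell thus read most of the 28 at 1 RPM or more, as it did the genes they were drawn from.

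Several of the 28 have roles in every cell. *eEF1delta*, a translation elongation factor subunit on chromosome 2L from 10232507 to 10234450, had 3492, 1639, 1 and 2566 reads in Cells 1 to 4. *Cpr*, the electron donor of cytochrome P450 enzymes, had 3131, 1559, 1 and 961, and *Sfxn1-3*, a mitochondrial carrier, had 2117, 1288, 1 and 1010. *EloB*, elongin B, had 930, 405, 1 and 684 reads, *Roc1a*, a ubiquitin ligase subunit, had 503, 398, 1 and 733, and *Ubc6*, a ubiquitin-conjugating enzyme, had 1102, 420, 1 and 686. *Rpe*, of the pentose phosphate pathway, had 1031, 478, 0 and 721 reads, and *mxt*, a translation regulator, had 466, 588, 0 and 1312. In the discarded cell these genes ranged from 4.27 RPM for *Rpe* to 420 RPM for *Ubc6*.

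Gene regulators and structural proteins were also among them. *EcR*, the ecdysone receptor, had 495, 404, 0 and 1223 reads, *Hnf4*, a nuclear receptor of lipid metabolism, had 931, 717, 0 and 712, and *grh*, the Grainy head transcription factor, had 393, 1155, 0 and 762. Against the limit of 3 reads, *grh* was at least 136-fold lower in Cell 3 than in Cell 1, its lowest other cell. *Rox8*, an RNA-binding protein, had 503, 1018, 0 and 1078 reads, *p120ctn*, a catenin, had 861, 614, 1 and 672, and *kuk*, of the nuclear envelope, had 574, 526, 0 and 507. *Chd64*, a calponin-like protein, had 398, 768, 0 and 2721 reads. *EcR* stood at 407 RPM in the discarded cell, *Hnf4* at 11.4 RPM and *grh* at 8.14 RPM, so the regulators missing from Cell 3 differed in it.

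The other named genes of the 28 were *EbpIII*, with 2511, 2329, 1 and 1337 reads, *Hf*, with 1535, 823, 0 and 630, and *CG6415*, *CG4822*, *CG32687*, *CG3939*, *CG5958*, *CG9328*, *CG6067*, *CG14442*, *atos* and *bves*, whose lowest other kept cell was at 102 to 225 RPM. Just inside 100 RPM by their lowest other cell were *grh*, *Lmpt* and *Chd64* at 100.4, 102 and 102 RPM, and just outside were *CG10311*, *DNaseII* and *CG5618* at 99.4, 98.8 and 98.2 RPM. *CG9674*, *CG11400* and *CG10026*, with 2 reads in Cell 3, were 3 of 12 genes next to the read limit. All 28 are protein-coding, and 6 lie on the X chromosome (21.4%, against 18.3% of the 714 genes they were drawn from). Their median length was 4982 bases, against 3799 over those 714 genes and 2925 over all genes with a read.

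Genes of pyruvate oxidation and the citric acid cycle were low in Cell 3, by a list written after the values were seen. Of 21 genes 19 were matched, 6 met the 10-fold rule downward and 0 upward (178 and 186 of 8848 over all genes), and 17 were lowest in Cell 3 (2715 of 8848, or 30.7%, over all genes). At 100 RPM or more were 14, 13, 5 and 16 of the 19 in Cells 1 to 4, against 15.8%, 14.7%, 12.9% and 15.2% of all genes. The median difference was -3.66 in log2(RPM + 1). The 19 genes held 0.138% (0.135 to 0.142) of the reads of Cell 3 against 0.691%, 0.575% and 0.610% of Cells 1, 2 and 4 and 0.368% of the discarded cell. With size factors 4 of the 19 met the rule and the median was -3.10.

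Both subunit genes of the first enzyme were among the 6. *Pdha*, the alpha subunit of pyruvate dehydrogenase, had 1720, 1558, 18 and 1219 reads in Cells 1 to 4, and *Pdhb*, the beta subunit, had 2281, 867, 6 and 1485. *PCB*, pyruvate carboxylase, had 983, 1243, 21 and 1625 reads, and *mAcon1*, mitochondrial aconitase, had 1075, 1598, 75 and 1709. *Idh3a*, a subunit of isocitrate dehydrogenase, had 2636, 1697, 134 and 3388 reads, and *Idh3g*, another subunit, had 1120, 908, 5 and 1520, with a further 1113, 307, 36 and 532 reads shared with an overlapping gene. *Ogdh*, of the oxoglutarate dehydrogenase complex, had 392, 329, 0 and 763 reads. *Mdh2*, mitochondrial malate dehydrogenase, was at 833, 293, 329 and 589 RPM, and was one of the few genes of the list that were not lowest in Cell 3.

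Receptors and channels were described from lists of 40 peptide and hormone receptors, 41 transmitter receptors and 27 matched channel genes. Of the peptide receptors 3 met the 10-fold rule upward and 0 downward (186 and 178 of 8848 over all genes). These were *CCHa2-R* and *AstA-R2*, given above, and *sNPF-R*, the receptor of short neuropeptide F, with 14, 0, 653 and 0 reads in Cells 1 to 4. *AstA-R2* did not reach 100 RPM with uniquely mapped reads as the scale. *CCAP-R*, the receptor of crustacean cardioactive peptide, had 0, 1, 150 and 0 reads, below the 100 RPM minimum at 36.8 RPM. In the other direction *InR*, the insulin receptor, had 244, 949, 0 and 659 reads, and *Pdfr*, the receptor of the clock peptide PDF, had 471, 184, 0 and 292. Among the receptors named here, *CCHa2-R*, *AstA-R2*, *sNPF-R* and *CCAP-R* were thus read mainly in Cell 3, and *InR* and *Pdfr* only in the other kept cells. Receptors set apart in Cells 1, 2 or 4 are not described, so this is not shown to be particular to Cell 3.

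Among transmitter receptors, 3 genes met the rule upward and 0 downward (186 and 178 of 8848 over all genes). *GluClalpha*, a glutamate-gated chloride channel, was 127-fold (83.6 to 203) higher in Cell 3 than in Cell 2, the next highest. *nAChRbeta1*, a nicotinic acetylcholine receptor subunit, had 1, 44, 2074 and 157 reads, and *GABA-B-R2* was given above. Other inhibitory receptors were less far apart, with the GABA receptor gene *Rdl* at 169, 54.8, 728 and 106 RPM. All 3 genes were read in the discarded cell too, at 620, 2205 and 92.0 RPM. With uniquely mapped reads as the scale, *GABA-B-R2* did not reach 100 RPM and did not meet the rule.

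Of the 27 channel genes 1 met the rule upward and 1 downward (186 and 178 of 8848 over all genes). *stj*, an auxiliary subunit of calcium channels, had 3, 0, 1145 and 39 reads and met it upward. *Hk*, a beta subunit of the Shaker potassium channel, had 536, 496, 6 and 2070 reads and met it downward, though not with uniquely mapped reads as the scale or with MMQuant reads. *Sh* itself, the pore subunit, was at 6.13, 162, 722 and 1399 RPM, highest in Cell 4 by totals and in Cell 3 with size factors. The sodium channel gene *para*, given without a position, was at 1.02, 182, 866 and 141 RPM. With these channels, then, Cell 3 held the sodium channel and *stj* at high levels but almost no *Hk*.

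Genes for making and loading small-molecule transmitters held a small share of the reads of Cell 3. None of the 14 matched genes was at 100 RPM or more there, where 12.9% of all genes were. Cells 1, 2 and 4 had 1, 2 and 1, and 0 of the 14 met the 10-fold rule in either direction. Of the 14, 5 were lowest in Cell 3, against 30.7% of all genes. Together the 14 held 0.00316% (0.00266 to 0.00376) of the reads of Cell 3. The other kept cells had 0.0208% to 0.0781% and the discarded cell 0.323%. *VGlut*, the vesicular glutamate transporter, had 73, 125, 2 and 123 reads, *ChAT*, which makes acetylcholine, had 12, 255, 2 and 58, and *ple*, which makes the dopamine precursor, had 78, 1203, 2 and 320. *Gad1*, which makes GABA, had 0, 190, 0 and 1 reads. *SerT*, the serotonin transporter, went the other way with 0, 0, 68 and 0 reads.

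Transcription factors and clock genes came from lists of 35 and 8 matched genes. Over all genes, 186 of 8848 met the 10-fold rule upward and 178 downward. Of the 35 identity factors 1 met it upward, near that share, and 0 downward. This was *Lim1*, a LIM-homeodomain factor, with 2, 55, 2121 and 3 reads in Cells 1 to 4, and it was at 405 RPM in the discarded cell. *Optix*, a homeodomain factor of the eye, had 1, 82, 1029 and 437 reads, and *Vsx1*, a homeobox factor, had 0, 0, 258 and 0, below the 100 RPM minimum at 63.3 RPM. *dac* and *ey*, factors of the eye and mushroom body, had 0, 0, 186 and 1 and 0, 1, 84 and 3 reads. *svp*, a nuclear receptor, had 1094, 986, 0 and 196 reads.

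Of the 8 clock genes, 1 met the rule upward and 0 downward (186 and 178 of 8848 over all genes). This was *cyc*, the partner of *Clk*, at 8.43, 22.0, 234 and 12.2 RPM. *Clk* had 0, 134, 410 and 111 reads. Of the genes that these factors drive, *per* had 1, 0, 0 and 21 reads, *tim* had 357, 43, 12 and 534, *vri* had 2, 175, 0 and 264, and *cwo* had 54, 1713, 1 and 1005. *Pdp1*, also a target, was at 1176, 1423, 534 and 1954 RPM. The activators and their targets thus did not share an order over the cells.

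Markers of other cell types moved with the comparison, as Cell 3 had the lowest summed share of each among the kept cells by totals, though with size factors not for fat body and for hemocytes and muscle. The 19 photoreceptor genes held 1.64%, 1.89%, 0.212% and 5.00% of the reads of Cells 1 to 4, 14 of 19 were lowest in Cell 3 (2715 of 8848 over all genes), and 5 (*Rh2*, *ninaC*, *Arr1*, *chp* and *norpA*) met the 10-fold rule downward (178 of 8848 over all genes). With size factors *ninaC* and *norpA* met it, and with uniquely mapped reads *ninaC*, *Arr1* and *norpA*. The 13 fat body genes held 4.83%, 4.00%, 1.00% and 1.85%, or 5.08%, 3.12%, 1.79% and 1.26% with size factors, and *TotA* met the rule downward by totals but not with size factors, uniquely mapped reads or MMQuant reads. Defining markers were not at 0, since *ninaE*, the main rhodopsin, was at 6578, 10178, 1092 and 22428 RPM and *Yp1*, a yolk protein, at 10691, 3012, 1948 and 4271 RPM. The 14 glia genes held 0.280%, 0.487%, 0.0878% and 0.585%, with *repo*, the glial master factor, at 1, 0, 0 and 300 reads. The 14 hemocyte and muscle genes held 0.0807%, 0.0845%, 0.0380% and 0.152%, or 0.0848%, 0.0660%, 0.0678% and 0.104% with size factors. By totals the discarded cell was below Cell 3 for photoreceptor (0.178%), fat body (0.111%) and hemocyte and muscle genes (0.00814%). It was above Cell 3 for glia genes (0.243%). The part of these markers in the 28 missing genes and the 178 lower genes was not tested.

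**Figure D5:**
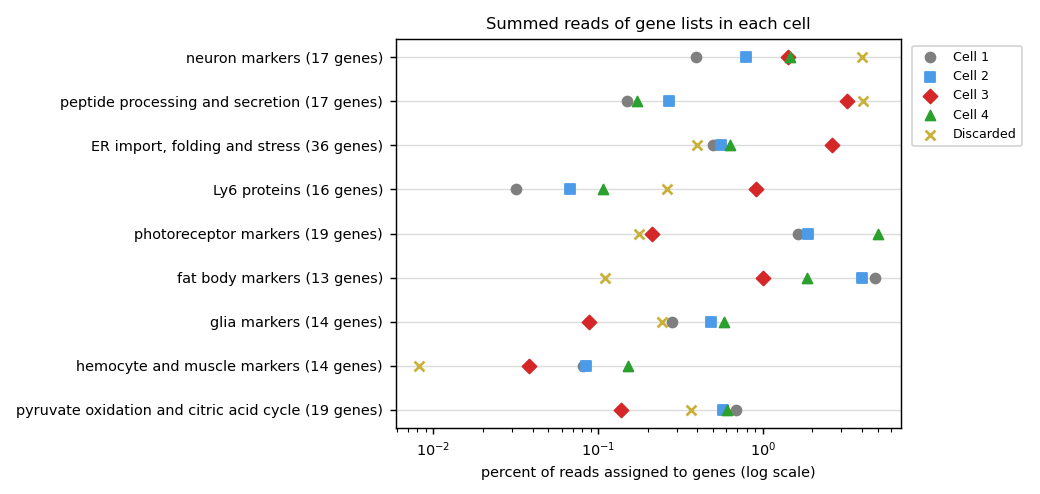
Summed reads of 9 gene lists as a percent of reads assigned to genes, on a log axis, with 1 point per library. Cell 3 (red diamond) had the highest share of the kept cells for processing, ER and Ly6 genes and, by these totals, the lowest for photoreceptor, fat body, glia, hemocyte and muscle, and citric acid cycle genes; with size factors it was not the lowest for fat body and for hemocytes and muscle.

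Neuron markers were about level between Cells 3 and 4 by totals. The 17 genes held 0.390%, 0.787%, 1.42% and 1.46% of the reads of Cells 1 to 4, or 0.410%, 0.615%, 2.53% and 0.994% with size factors, and 4.02% of the discarded cell. At 100 RPM or more were 7, 11, 12 and 12 of them in Cells 1 to 4 and 17 in the discarded cell. Over all genes with a read, the shares at that level were 15.8%, 14.7%, 12.9%, 15.2% and 18.6%. *Appl*, the fly amyloid precursor protein, was at 133, 487, 3505 and 554 RPM and *fne*, an RNA-binding protein of neurons, at 76.1, 218, 1899 and 201 RPM. *elav*, the neuronal marker related to *fne*, was at 0.255, 123, 21.6 and 81.3 RPM, lower in Cell 3 than in Cells 2 and 4. *Syx1A*, a syntaxin of transmitter release, had 297, 294, 0 and 321 reads, and *unc-13*, a priming factor, had 452, 674, 42 and 859 and met the 10-fold rule downward by totals, though not with uniquely mapped reads, size factors or *Dh44* left out as the scale, nor with MMQuant reads. *Appl*, *fne* and *para* met it upward with size factors. Over all 8848 genes the rule was met downward by 178 by totals and upward by 373 with size factors. Genes of the release machinery were therefore read unevenly within this single cell.

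The discarded library, which did not enter the choice of genes, gave a view of how far these differences belonged to Cell 3. Of the 186 genes higher in Cell 3, 70 (37.6%) were at 100 RPM or more in the discarded cell, compared with 60.6% of all 1141 genes at that level in Cell 3. Together the 186 held 24.5% of the reads of Cell 3, 3.79% of the discarded cell and 0.151%, 0.238% and 0.226% of Cells 1, 2 and 4. *CG4577*, a gene of unassigned function named here after its values were seen, was at 6.90, 26.7, 4817 and 8.55 RPM in Cells 1 to 4 and at 2873 RPM in the discarded cell. *bero*, at 4742 RPM in Cell 3, was at 7.12 RPM in it. The peptide pathway genes were thus high in both libraries, and the Ly6 run in Cell 3 alone of the 5. The low shares of photoreceptor, fat body and hemocyte and muscle markers were shared by both libraries by totals.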

How the data were processed

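The deposited values are whole-number counts of reads per gene, which the authors made by amplifying the RNA of each cell in 3 rounds, sequencing it as 100-base single reads from unstranded libraries, trimming with Trim Galore and PRINSEQ and mapping to dm6 with RNA Star and the BDGP6.87 annotation. A further table per cell holds MMQuant counts as deposited, which give reads on overlapping genes to the gene group. Totals of unassigned reads were left out of library sizes, and 27.0% (Cell 3) to 37.0% of uniquely mapped reads lay outside exons.

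RPM used the reads assigned to genes, 3451331 to 4913151 per library, and log2 values had a pseudocount of 1 RPM. Cells have no replicates of each other by type, so no test between groups was run. Genes named were the 6 markers, the 25 leading genes of each set, up to 3 genes on either side of each threshold, the 15 genes highest in Cell 3 and genes of the lists described, and exceptions are stated. The members and lists were chosen with earlier results of these data known. Of 17453 identifiers, 17179 were matched in the gene name table, *InR* and *para* were named from the study and 272 stayed without a symbol. Positions are from Ensembl release 115 (BDGP6.54), whose coordinates are those of dm6.

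The alternatives were uniquely mapped reads or median-of-ratios size factors as the scale, *Dh44* left out of the totals, MMQuant or summed stranded counts, libraries thinned to the shallowest, other thresholds, at least 10 summed reads per gene, the discarded cell among the others and each other cell left out. The 10-fold rule and its alternatives, and the scale without *Dh44*, were added after the data were seen. As a check of the calculation, the counting rules were run on simulated counts. Some genes were set high in Cell 3 and absent elsewhere, or the reverse. Their recovery was fixed in advance, and the simulation had no losses from amplification, so it does not test the rules under such losses. Python 3.11.15, numpy 2.4.6, pandas 2.3.3, scipy 1.17.1 and matplotlib 3.10.9 were used.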

Additional observations from a re-analysis of the deposited data

Results flagged for a closer look

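In 30 comparisons over the 4 kept cells (6 marker genes, 5 library measures and 19 gene lists), the gap of 1 cell to its nearest neighbor was divided by the whole range, as a screen against Dixon's 95% critical value. It picked out 12, with Cell 3 as the far cell in each. Chance gives about 1 such case in 20 where values are not chosen, but Cell 3 was picked for its *Dh44* reads and the markers and some lists for their values, so the 12 describe that choice and test nothing.

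The marker genes were *Dh44* at 131997 RPM in Cell 3, next to 171 RPM in the nearest cell, *7B2* at 16039 next to 110 RPM, *IA-2* at 9748 next to 1366 RPM, *Ms* at 2302 next to 167 RPM, *Ilp2* at 2006 next to 13.3 RPM and *CCHa2-R* at 371 next to 0.579 RPM. As shares of reads on genes, the markers together were 16.2% in Cell 3 and 0.159% in the nearest cell. Neuropeptide precursors were 13.7% next to 0.271%, but without *Dh44* they were 0.533% next to 0.254% and did not pass the screen, as the gap was 0.713 of the range. Processing and secretion genes 3.22% next to 0.271%, and insulin-producing cell markers 0.210% next to 0.0105%. The lists written after the values were seen gave 2.64% next to 0.631% for genes of the endoplasmic reticulum and 0.909% next to 0.108% for Ly6 proteins.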

How the results depend on the processing

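No paired analysis was possible because no test between cells was run and the cells share no number that pairs them. Of 75 alternative values, 44 stayed within 1.5 times the main count or within counting error. The numbers of genes read only in Cell 3 and missing only from it (27 and 28) became 14 and 5 with uniquely mapped reads as the scale, 45 and 15 with size factors, 48 and 125 at 50 RPM, 10 and 5 at 200 RPM, 9 and 13 with no read allowed, 50 and 58 with up to 4 reads allowed, and 6 and 13 with the discarded cell among the others. With MMQuant reads of a gene alone the second was 16. With 1 other cell left out they were 31 (Cell 1) to 55 (Cell 4) and 59 (Cell 2) to 75 (Cell 4).

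The numbers of genes at least 10 times higher and lower (186 and 178) became 373 and 86 with size factors and 84 and 78 with the discarded cell. The second was 86 with uniquely mapped reads. Without 1 other cell they were 220 to 252 and 243 (Cell 2) to 293 (Cell 1). The share of higher among both was 51.1% and became 81.3% with size factors, 66.7% with uniquely mapped reads and 56.9% without *Dh44* in the totals.

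*Dh44* in Cell 3 was 89476 with uniquely mapped reads, 66084 with MMQuant reads alone or with shared reads, 235589 with size factors and 152070 RPM relative to the other genes, against 131997. The number of precursor and processing genes at 100 RPM or more (6 and 12) stayed within 1.5 times under all 7 alternatives run. MMQuant kept 18 of the 27 genes and 12 of the 28. Depth limits Cell 3 to 0.736 RPM at a count of 0, and with 1 cell of its kind neither its spread nor losses during amplification could be measured.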

Other observations

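*Dh44* reads were split unevenly between strands although the libraries were not stranded. The share on the first strand was 32.3% (28.1 to 36.9), 27.9% (24.1 to 31.9), 76.0% (75.9 to 76.1) and 45.5% (42.0 to 49.0) in Cells 1 to 4 and 62.1% (59.8 to 64.2) in the discarded cell. For *IA-2* it was 53.8% to 55.4% in all 5 libraries, and for *7B2* it was 49.7% to 55.6%. *Dh44* was not the only uneven gene in Cell 3. *CG4577* was at 64.3% (63.6 to 64.9) there, and *rumi* had 805 reads on the first strand and 153 on the other. MMQuant counted 299888 *Dh44* reads in Cell 3, 55.7% of the 538167 of RNA Star, and 32.2% to 46.8% in the other kept cells, whereas MMQuant counted 97.2% of the *7B2* reads of Cell 3.

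The level of *Dh44* in Cells 1, 2 and 4 was 0.0844%, 0.111% and 0.130% of that in Cell 3. The same ratio was 0.686%, 0.0488% and 0.0632% for *7B2*, 1.36%, 1.14% and 1.77% for *bero*, and 0.0234%, 0.106% and 0.0309% for *CG30172*, a gene named after its values were seen that was at 4365 RPM in Cell 3. The ratios to Cell 3 were thus not the same from gene to gene.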
